A study of Equus caballus with 21 samples.

Results

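The comparison described here is that of pregnant with cyclic glandular epithelium of the horse endometrium on day 12. Its members are the 8 libraries that the labels name as glandular, 4 from pregnant and 4 from cyclic biopsies, out of 21 libraries in the series. Healthy warmblood mares received human choriogonadotropin to induce ovulation in either kind of cycle, and before a pregnant biopsy the mare was also inseminated with fresh cooled semen. The uterus was biopsied on day 12, and the snap-frozen tissue was sectioned, stained and cut with a laser into luminal epithelium, glandular epithelium and stroma. Each library started from about a nanogram of total RNA in a kit made for single cells. Part of the libraries went through a further amplification that the labels do not assign to samples. The cyclic libraries are the control, and the hormone given before ovulation is common to both groups. Mares B, C, M and U each gave 1 pregnant and 1 cyclic glandular library, so both states come from the same 4 animals. The main tests did not use this pairing, and fits with the mare as a block are given as alternatives. The labels hold 5 mares in all, whereas the design text speaks of 6.

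Endometrial glands secrete the proteins, lipids and nutrients, together called histotroph, on which the equine conceptus lives while it moves freely through the uterus. Progesterone from the corpus luteum drives this secretion, and uterocalin and uteroglobin, small carriers of lipids and steroids, are among its known products. In the mare, the days around the biopsy are those in which the uterus responds to the conceptus and the corpus luteum is kept. The comparison asks what the presence of a conceptus changes in the gland cells themselves, apart from the surface epithelium that it touches. Since insemination is described only for the pregnant cycles, its effect and that of the conceptus cannot be told apart here.

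The glandular label was checked against marker genes, summed as CPM, counts scaled to a common library total, without the ribosomal RNA genes. Gland markers summed to between 21500 and 61600 CPM in cyclic and between 23900 and 75400 CPM in pregnant glandular libraries, against 2580 to 8230 and 2830 to 4250 CPM in cyclic and pregnant luminal libraries. P19, the uterocalin gene, made up 32.7% to 90.6% of that sum in cyclic and 83.4% to 96.6% in pregnant glands, so the check rested largely on 1 gene. The other 8 markers summed to 3460 to 14500 and 2550 to 5230 CPM in cyclic and pregnant glands, against 774 to 1290 and 1350 to 2720 CPM in luminal epithelium, so that the pregnant ranges overlapped. All 9 gland markers in the table had counts in both glandular groups except FOXA2, a gland transcription factor in other mammals, which had no count in any compartment. Luminal markers reached 99.2 to 1040 CPM in cyclic and 430 to 1190 CPM in pregnant glands, and 3560 to 20600 CPM in luminal epithelium. Stromal fibroblast markers reached 538 to 1900 CPM in glands and 8650 to 16600 CPM in stroma. Lymphocyte markers reached at most 101 CPM, macrophage markers at most 189 CPM and endothelial markers at most 415 CPM in any glandular library, and ciliated cell markers ran from 105 to 1790 CPM. Since the captured tissue is bulk material, fewer cells of a type and less RNA per cell cannot be told apart.

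Total counts were 222623 to 1079351 in the cyclic and 486316 to 1467510 in the pregnant libraries, with 5093 to 10151 and 6555 to 11368 genes detected. Both libraries of mare M stood apart. The cyclic one was the smallest of the 8, held 0.293% of its counts in the 18S ribosomal RNA gene RN18S against 8.29% to 31% in the other cyclic libraries, and had 15.4% of its remaining counts in ribosomal protein genes against 5.79% to 8.06%. It is also missing from the authors' table of 19 libraries. In it, 3 counts, the limit that a count of 0 allows, equal 19.8 CPM. Cyclic M levels up to that value, given for several genes below, cannot be told from 0. The pregnant one held 48.8% of its counts in RN18S and a further 2.15% in RN28S, the gene of 28S ribosomal RNA. Results are therefore given for all 4 mares and for mares B, C and U alone.

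With all 4 mares, 3 of 4816 genes tested passed an adjusted p of 0.05 in the quasi-likelihood test of edgeR, adjusted after Benjamini and Hochberg, or 0.0623% (2 higher in pregnancy, 0.0415%, and 1 lower, 0.0208%). With mares B, C and U, none of 5474 genes passed, or 0%, and the smallest adjusted p was 0.0675. DESeq2 called none in either set of mares. At an unadjusted p under 0.05, 350 genes stood out with 4 mares (7.27%; 90 higher, 1.87%, and 260 lower, 5.4%) and 122 without mare M (2.23%; 78 higher, 1.42%, and 44 lower, 0.804%). The precision was low. The 95% interval of a log2 fold change reached 2.6 to either side of the estimate for the median gene with 4 mares, and 3.11 with 3. A gene that did not pass may thus still differ several fold, and the values below describe these libraries.

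Most of the 260 genes that leaned lower in pregnancy had their highest cyclic level in 1 library, and a single high library can itself give a small p-value. The genes that leaned lower or higher were picked by a p-value from these same levels. The shares below therefore describe them, and a cause was not tested. The cyclic library of mare M held the highest cyclic level of 253 of them, or 97.3%, whereas it held the highest cyclic level of 1140 of all 4816 tested genes, or 23.7%. Cyclic libraries B, C and U held the highest level of 0, 3 and 4 of the 260. Among the 90 genes that leaned higher, the pregnant library of mare U was the highest pregnant one for 61, or 67.8%, against 30% of all tested genes, and pregnant B, C and M for 13, 1 and 15.

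**Figure D1:**
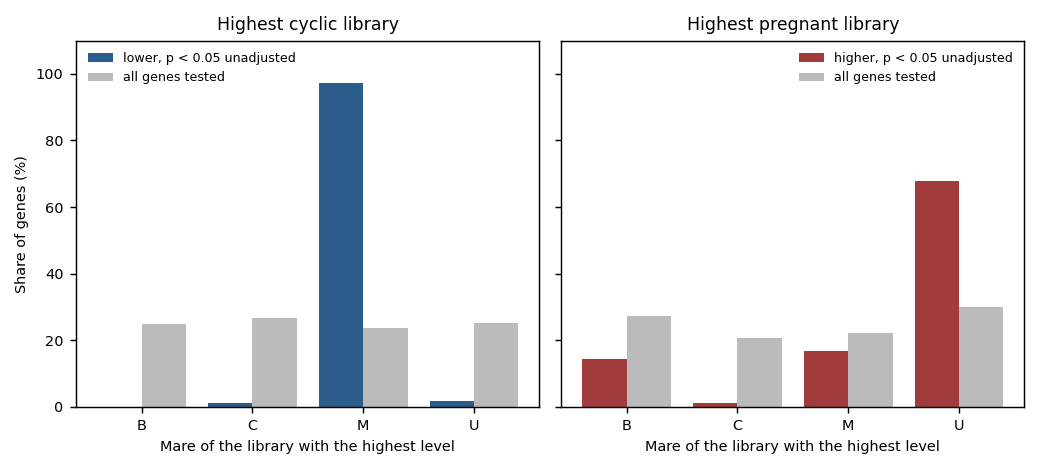
Share of genes (in percent, linear axis from 0) whose highest cyclic level (left) or highest pregnant level (right) fell in the library of each mare, for the 260 lower and 90 higher genes at an unadjusted p under 0.05 with 4 mares and for all 4816 genes tested. Cyclic M held 97.3% of the lower genes and pregnant U 67.8% of the higher ones.

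Among the secreted products of the gland, the carrier proteins differed in direction between libraries, and none passed the test. All levels of single genes from here on are CPM of the scaled library size, while marker sums stay on the unscaled CPM used above, and both are listed in the order of mares B, C, M and U. P19, which encodes uterocalin, stood at 39860, 19540, 10270 and 23650 CPM in the cyclic and 56420, 16050, 16140 and 37140 CPM in the pregnant libraries. It was higher in pregnancy in 3 of 4 mares. The groups overlapped, and its log2 fold change was 0.43 ± 0.77 (SE) with 4 mares and 0.37 ± 0.49 without mare M. For genes below that moved alike in all 4 mares, the shares to set beside them are 387 of 4816 genes, or 8.04%, higher and 198, or 4.11%, lower. These shares do not apply to P19. With limma-voom, another test on the same counts, P19 in mares B, C and U was called in the opposite direction, at -0.52 (adjusted p = 1.66e-05). Mare B gave the highest and mare M or C the lowest level in either state, so the spread between mares exceeded the difference between states.

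SCGB1A1, a uteroglobin gene, stood at 701, 1060, 3611 and 1080 CPM in cyclic and at 142, 209, 481 and 963 CPM in pregnant glands. It was lower in pregnancy in 4 of 4 mares, by a log2 fold change of -1.84 ± 0.77 (adjusted p = 0.455), and of -1.17 ± 0.58 without mare M. Mare U differed little, and its pregnant level overlapped the cyclic range. LOC100033916, for which the RefSeq gene table gives SCGB1A1 as another name, had cyclic levels of 418, 1590, 573 and 1130 CPM and pregnant levels of 281, 168, 327 and 324 CPM. Its 4 pregnant libraries all lay below the lowest cyclic one, with a log2 fold change of -1.76 ± 0.77 with 4 mares and -2.05 ± 0.59 with mares B, C and U. Groups that did not overlap in this direction were found for 50 of 4816 genes, or 1.04%, and in the opposite direction for 82, or 1.7%. With mares B, C and U alone, 223 of 5474 genes (4.07%) had every pregnant level below and 201 (3.67%) every pregnant level above the cyclic ones. The rule by which shared reads were divided between these copies is not known here, so their separate levels are uncertain.

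SERPINA14, the uterine serpin, fell under the count filter and was not tested. It had 0, 0, 6.59 and 4.38 CPM in cyclic and 24.4, 16.4, 14.6 and 12.5 CPM in pregnant glands, which is 3 against 52 counts. The ratio of the groups was 13.6 with an exact 95% counting interval of 4.39 to 67.9, which covers counting error only. WFDC2, a secreted protease inhibitor of epithelia, had 1 count in cyclic and 27 in pregnant glands, a ratio of 21.1 with an interval of 3.48 to 865. Its pregnant levels of 56.1, 0.548, 0 and 7.52 CPM rested mainly on mare B.

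SPP1, the adhesion protein osteopontin, ran at 1877, 558, 14270 and 2114 CPM in cyclic and 996, 1316, 803 and 1337 CPM in pregnant glands. Its log2 fold change of -2.08 ± 0.77 became -0.34 ± 0.52 without mare M, whose cyclic library lay far above the rest. PIGR, the receptor that carries immunoglobulin A into secretions, was lower in 4 of 4 mares, with 26.4, 95.6, 257 and 17.5 CPM in cyclic and 0, 14.2, 35.4 and 5.01 CPM in pregnant glands (-2.81 ± 1.5). LRP2, the endocytic receptor megalin of gland cells, differed by 0.13 ± 0.72 with 4 mares and 0.08 ± 0.54 without mare M. Of 36 listed secretory products, 26 had a count and 10 were tested with 4 mares. None passed, 4 were positive and 6 negative, and their median log2 fold change was -0.66, beside 0.07 over all genes tested. Without mare M the median of 12 tested members was -0.02, beside -0.01 over all genes.

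**Figure D2:**
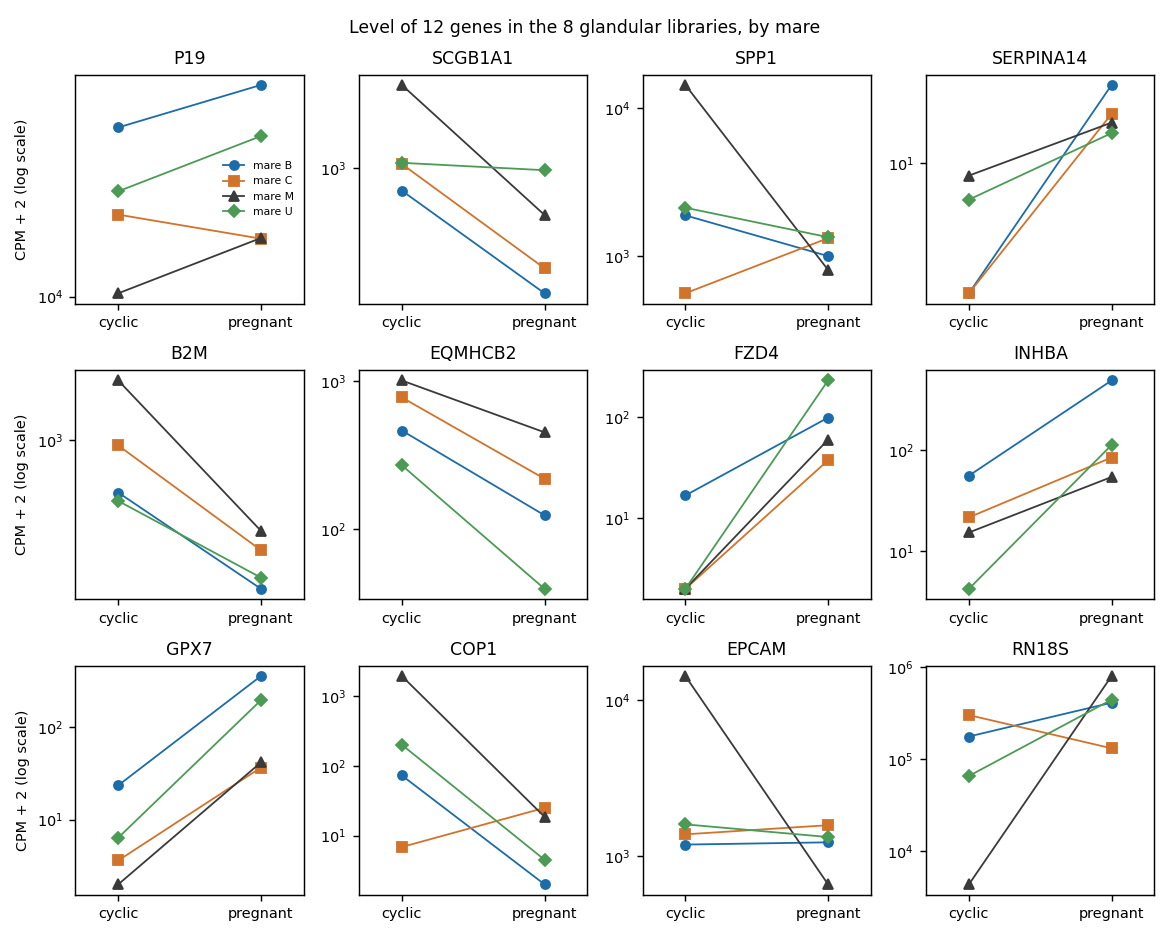
Level of 12 genes in the 8 glandular libraries (CPM of the scaled library size plus 2, log axis, a different range in each panel), with a line joining the cyclic and the pregnant library of each mare. All 4 lines run down in B2M and EQMHCB2 and up in FZD4 and INHBA, while in SPP1, COP1 and EPCAM the cyclic library of mare M lies far above the others.

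Genes of antigen presentation were lower in most pregnant libraries, without passing the test. B2M, the light chain shared by all class I molecules, stood at 558, 943, 1944 and 508 CPM in cyclic and at 190, 293, 364 and 216 CPM in pregnant glands. Every pregnant library lay below every cyclic one, and the log2 fold change was -1.89 ± 0.77 with 4 mares (adjusted p = 0.45) and -1.53 ± 0.61 without mare M. The class I gene EQMHCB2 was lower in 4 of 4 mares, with 460, 770, 1002 and 267 CPM in cyclic and 122, 217, 447 and 37.6 CPM in pregnant glands (-1.6 ± 0.83 and -1.98 ± 0.69). EQMCE1, another gene of that class, had cyclic levels of 490, 536, 145 and 320 CPM and pregnant levels of 63.4, 198, 376 and 135 CPM. Mare M ran opposite to the other 3 mares there, and the log2 fold change was -0.95 ± 0.87 with it and -1.77 ± 0.69 without it. These genes belong to a family of near-identical copies, so their separate counts are uncertain.

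CD74, the chaperone of class II molecules, did not share this pattern. It stood at 244, 665, 303 and 72.3 CPM in cyclic and 432, 204, 216 and 296 CPM in pregnant glands (-0.16 ± 0.85 with 4 mares and -0.11 ± 0.67 without mare M). Of 21 listed presentation genes, 15 had a count and 4 were tested with 4 mares, all 4 of them negative with a median of -1.07. With mares B, C and U, 6 were tested, 5 were negative and the median was -1.39. The median stayed negative in each of the other settings tried and ranged from -1.56 to -0.405 with mares B, C and U. Markers of lymphocytes, which also carry class I molecules, summed to 0 to 101 CPM in cyclic and 15.4 to 46.1 CPM in pregnant glands, and macrophage markers to 18 to 159 and 15.4 to 189 CPM. Their part in the levels of B2M was not tested.

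Few interferon-stimulated genes were measurable in the glands. Of 33 listed, 26 had a count and 5 were tested with 4 mares, with a median of 0.12. IRF1, a transcription factor induced by interferons, had no count in the 4 cyclic libraries and 53 counts in the pregnant ones, at 36.6, 2.19, 58.2 and 15.1 CPM, of which those of mares C and U rest on few counts. ISG15, a ubiquitin-like protein induced by interferons, did not exceed 10.4 CPM in any glandular library.

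Genes of the secretory apparatus spread widely around a median near 0, from -3.15 to 2.21 on the log2 scale with 4 mares and from -2.79 to 3.3 without mare M. HSPA5, the main chaperone of the endoplasmic reticulum, was higher in pregnancy in 4 of 4 mares, at 390, 352, 310 and 471 CPM in cyclic and 532, 434, 537 and 737 CPM in pregnant glands. Its log2 fold change was 0.56 ± 0.77, and 0.46 ± 0.59 without mare M. P4HB, a protein disulfide isomerase of the same compartment, was also higher in each mare, with 1588, 788, 1634 and 673 CPM in cyclic and 1654, 1030, 2228 and 2124 CPM in pregnant glands (0.59 ± 0.71). CALR, the lectin chaperone calreticulin, was higher in 3 of 4 mares, with 591, 342, 725 and 528 CPM against 937, 303, 1088 and 2264 CPM (1.07 ± 0.74, and 1.21 ± 0.57 without mare M). SSR4, a subunit of the translocon-associated complex, had 34.7, 3.24, 112 and 6.57 CPM in cyclic and 105, 17.5, 160 and 359 CPM in pregnant glands, with 2.1 ± 1.23 with 4 mares and 3.3 ± 1.44 without mare M. Of 64 listed genes of the secretory pathway and unfolded protein response, 59 were tested with 4 mares, 32 of them positive, and 60 without mare M, 35 of them positive. None passed, and the medians of 0.14 and 0.17 stood beside 0.07 and -0.01 over all genes. SEC62 and SPCS1, of the membrane translocon and the signal peptidase, had cyclic levels in mare M of 14360 and 2286 CPM, above 1606 to 1759 and 120 to 149 CPM in the other cyclic libraries. Their log2 fold changes of -1.79 ± 0.76 and -3.15 ± 0.93 became -0.08 ± 0.51 and -0.68 ± 1.09 without mare M.

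Nuclear genes of oxidative phosphorylation leaned lower in pregnancy both with and without mare M. Of 79 listed, 72 had a count. With 4 mares 41 were tested, of which 29 were negative, with a median log2 fold change of -0.93. With mares B, C and U, 46 were tested, of which 35 were negative, with a median of -0.69. That median ranged from -0.91 to -0.35 over the other settings and was negative in each. No member passed the test, and single values ran from -3.49 to 1.55 with 4 mares and from -2.52 to 3.24 without mare M. The highest without mare M was NDUFS3, with 26.4, 0, 547 and 0 CPM in cyclic and 254, 16.45, 22.9 and 2.51 CPM in pregnant glands. Its log2 fold change was -0.93 ± 1.27 with 4 mares and 3.24 ± 1.89 without mare M. ATP5MG, a subunit of the ATP synthase, had 64.4, 66.5, 580 and 116 CPM in cyclic and 19.5, 45.5, 14.6 and 15.1 CPM in pregnant glands, so that the groups did not overlap (-3.08 ± 1.19, and -1.6 ± 1.64 without mare M). COX7C, a subunit of cytochrome c oxidase, stood apart in cyclic M, whose level was 2622 CPM against 89.2 to 135 CPM in the other cyclic and 77 to 166 CPM in the pregnant libraries. Its log2 fold change was -2.75 ± 0.91 with mare M and 0.17 ± 1.08 without. TFAM, the factor that transcribes and packs mitochondrial DNA, stood at 58.6, 105, 1601 and 76.7 CPM in cyclic and 9.76, 29.6, 41.6 and 2.51 CPM in pregnant glands. The groups did not overlap, with -4.42 ± 1.1 (adjusted p = 0.0882) and -2.45 ± 1.8 without mare M. TFAM is not a member of the list. It was named for a small p with 4 mares, and in the blocked fit among genes lower in 4 of 4 mares. That choice favours groups that do not overlap. Ciliated cell markers had both tested members negative with 4 mares (median -1.86) and 5 of 6 without mare M (median -1.74, or -0.736 when cyclic C was also left out). Their summed level was 183, 1790, 122 and 382 CPM in cyclic and 403, 274, 105 and 686 CPM in pregnant glands, higher in pregnancy in mares B and U. Their part in the oxidative phosphorylation values was not tested.

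Cytosolic ribosomal protein genes behaved otherwise. Their median was -0.68 over 74 tested genes with 4 mares but -0.07 with mares B, C and U, where 30 were positive and 44 negative. With relative log expression scaling (RLE), another way to set library sizes, the latter median was 0.01, and with 4 mares but without cyclic M it was 0.02. RPL34, of the large subunit, was 1 of 3 members among the 74 whose pregnant levels all lay below the cyclic ones (1.04% of all genes tested), at 530, 694, 3150 and 613 CPM in cyclic and 454, 268, 189 and 123 CPM in pregnant glands (-2.27 ± 0.79, and -1.13 ± 0.61 without mare M). RPL5 showed the influence of cyclic M plainly, with 1934, 1499, 18630 and 3860 CPM against 2774, 1974, 1400 and 1650 CPM.

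**Figure D3:**
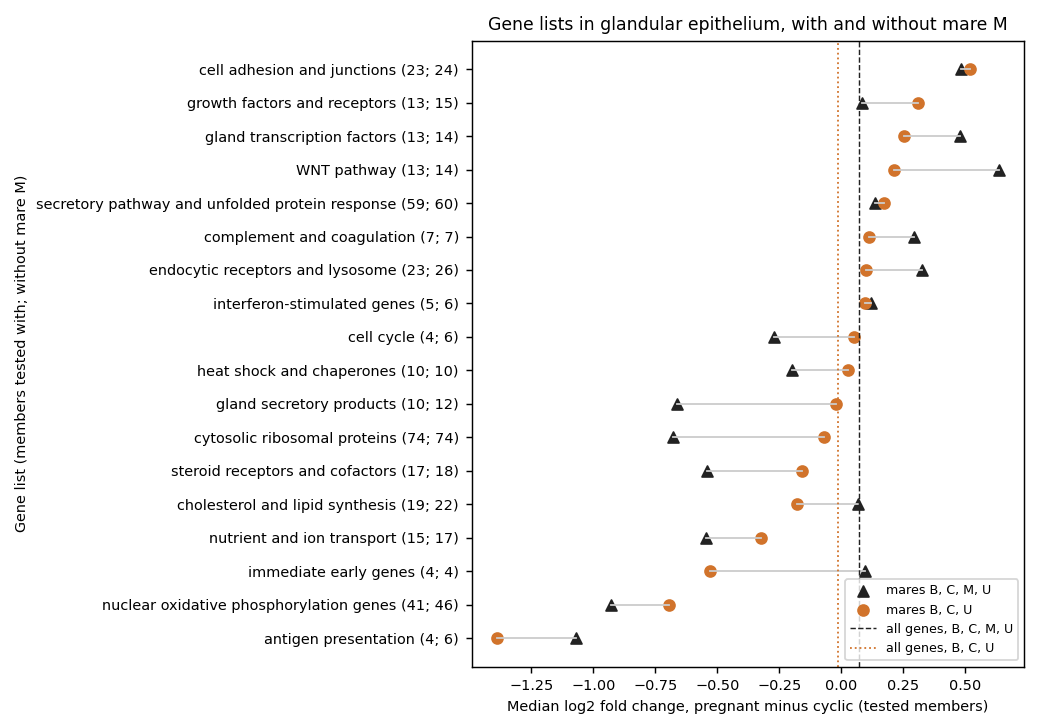
Median log2 fold change, pregnant minus cyclic, of the tested members of 18 gene lists with 4 mares (triangles) and with mares B, C and U (circles), with the number of members tested in brackets and dashed and dotted lines at the medians over all genes. Antigen presentation and oxidative phosphorylation lie to the left in both, and ribosomal proteins and secretory products lie near the all-gene line without mare M.

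In the WNT pathway, which patterns uterine glands, the values leaned higher, and no gene passed the test. FZD4, a WNT receptor, had 14.9, 0, 0 and 0 CPM in cyclic and 97.6, 35.6, 58.2 and 231 CPM in pregnant glands. The groups did not overlap, and the log2 fold change was 4.5 ± 1.64 with 4 mares (adjusted p = 0.359) and 4.39 ± 1.8 without mare M. LEF1, a transcription factor at the end of the pathway, had 111, 8.1, 19.8 and 6.57 CPM in cyclic and 83, 28, 310 and 579 CPM in pregnant glands (2.74 ± 1.13 and 2.34 ± 1.07). Mare B went the other way in LEF1. CTNNB1, which encodes beta-catenin, was higher in 4 of 4 mares, with 160, 216, 19.8 and 153 CPM in cyclic and 630, 286, 137 and 344 CPM in pregnant glands (1.33 ± 0.91 and 1.23 ± 0.68). Of 42 listed genes, 33 had a count. With 4 mares 13 were tested, 11 of them positive with a median of 0.64, and without mare M 14 were tested, 9 of them positive with a median of 0.21. Of all genes tested, 52.3% and 49.4% were positive. The 5 negative members without mare M, the lowest at -1.65, are not among the genes named here. The choice of library sizes moved the count of positive members without mare M to 11, and their median lay between 0.03 and 0.62 over the settings tried.

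Growth factors and their receptors included several genes that were higher in each mare. INHBA, the subunit of activin A, stood at 53.7, 19.4, 13.2 and 2.19 CPM in cyclic and 488, 82.2, 52 and 110 CPM in pregnant glands (2.99 ± 1.23, adjusted p = 0.45, and 3.1 ± 1.12 without mare M). Its groups overlapped only through pregnant M and cyclic B. ERBB3, a receptor of the epidermal growth factor family, had 154, 50.2, 6.59 and 39.4 CPM in cyclic and 242, 122, 347 and 361 CPM in pregnant glands (2.06 ± 1.03 and 1.51 ± 0.9). IGF1R, the receptor of insulin-like growth factors, differed by 0.07 ± 0.71 with 4 mares and by 0.42 ± 0.52 without mare M, with 935 to 1017 CPM in cyclic and 1184 to 1535 CPM in pregnant libraries of mares B, C and U. Of 55 listed, 44 had a count and 13 were tested with 4 mares, 8 of them positive with a median of 0.09. Without mare M, 10 of 15 tested were positive and the median was 0.31, which turned to -0.13 when pregnant U was also left out.

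The steroid receptors gave mixed values. ESR1, the estrogen receptor, stood at 162, 584, 19.8 and 362 CPM in cyclic and 53.7, 199, 441 and 338 CPM in pregnant glands. It was lower in pregnancy in mares B, C and U and higher in mare M, with log2 fold changes of -0.13 ± 0.89 and -0.93 ± 0.7. PGR, the progesterone receptor, had 80.9, 125, 0 and 4.38 CPM in cyclic and 14.6, 92.7, 133 and 5.01 CPM in pregnant glands, and mare M again ran opposite to mares B and C. The cyclic M levels of ESR1 and PGR lie at or below the limit that a count of 0 allows in that library. FKBP4, a co-chaperone of steroid receptors, differed by -1.14 ± 1.15 and by -2.18 ± 1.09 without mare M. Of 23 listed receptors and cofactors, 17 were tested with 4 mares, 11 of them negative with a median of -0.54, and 18 without mare M, 10 of them negative with a median of -0.16. With the mare as a block, 14 of these 18 were negative and the median was -0.831.

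Transcription factors of the gland were also mixed. HOXB6, a homeobox gene of the reproductive tract, was higher in 4 of 4 mares, with 277, 182, 19.8 and 110 CPM in cyclic and 561, 241, 354 and 331 CPM in pregnant glands (1.32 ± 0.89 and 0.96 ± 0.68). FOXO1, a target of insulin and progesterone signals, was higher in each mare as well, with 103, 85.9, 13.2 and 24.1 CPM against 273, 194, 131 and 45.1 CPM (1.48 ± 1.12 and 1.25 ± 1.05). MSX1, an endometrial homeobox gene, was lower in mares B and U and higher in C and M (-0.42 ± 0.78 and -0.8 ± 0.59). Of 27 listed, 13 were tested with 4 mares, 8 of them positive with a median of 0.48, and 14 without mare M, 7 of them positive with a median of 0.25.

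Of the cell junction genes, 14 of 23 tested were positive with a median of 0.48 with 4 mares, where 52.3% of all genes were positive. Without mare M, 17 of 24 were positive with a median of 0.52, where 49.4% of all genes were positive. JUP, the desmosome and adherens junction protein plakoglobin, had 27.2, 109, 39.5 and 10.9 CPM in cyclic and 527, 92.7, 281 and 221 CPM in pregnant glands (2.58 ± 1.06 and 2.48 ± 0.93). Mare C did not take part in that difference. CLDN8, a tight junction claudin, was higher in 4 of 4 mares by a small amount, with 714, 913, 165 and 749 CPM in cyclic and 983, 1414, 225 and 933 CPM in pregnant glands (0.48 ± 0.75 and 0.48 ± 0.53). EPCAM, an adhesion molecule of epithelia, had 14350 CPM in cyclic M and 1182 to 1595 CPM in the other cyclic libraries, so that its log2 fold change of -1.95 ± 0.76 became -0.03 ± 0.51 without mare M.

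Transporters held genes with values in either direction. SLC7A8, a carrier of neutral amino acids, had 112, 72.9, 26.4 and 138 CPM in cyclic and 276, 197, 659 and 429 CPM in pregnant glands, without overlap (2.14 ± 0.93, adjusted p = 0.507, and 1.45 ± 0.78 without mare M). AQP2, a water channel that is also among the luminal markers, had 51.2, 3.24, 13.2 and 0 CPM in cyclic and 122, 69.6, 49.9 and 251 CPM in pregnant glands (2.8 ± 1.39 and 2.9 ± 1.46). It had no count in any cyclic or pregnant luminal library. The zinc carrier SLC39A8 and the sodium pump subunit ATP1B3 were high in cyclic M, at 1443 and 1054 CPM, and their log2 fold changes of -2.67 ± 0.99 and -3.21 ± 1.22 became -0.42 ± 1.17 and 0.16 ± 2.07 without mare M. Of 51 listed carriers and channels, 15 were tested with 4 mares, 10 of them negative, and 17 without mare M, 10 of them negative. With the mare as a block, 14 of these 17 were negative, with a median of -0.814 in place of -0.325.

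The named genes with the smallest p-values in mares B, C and U included several outside these lists. KDM5C, a demethylase of histone H3, had 214, 19.4, 0 and 63.5 CPM in cyclic and 590, 147, 106 and 908 CPM in pregnant glands (2.52 ± 0.99 with 4 mares and 2.4 ± 0.72 without mare M). GPX7, a peroxidase of the endoplasmic reticulum, had 21.5, 1.62, 0 and 4.38 CPM against 354, 34.5, 39.5 and 193 CPM, without overlap (4.29 ± 1.42 and 4.27 ± 1.36). RHOF, a small GTPase of the actin skeleton, did not overlap either, with 43.8, 30.8, 6.59 and 0 CPM against 166, 77.3, 152 and 549 CPM (3.46 ± 1.2 and 3.3 ± 1.07). GPX7 and RHOF were named for a small p in these libraries. GPX7 was also named for a small p in the blocked fit among genes higher in 4 of 4 mares. Such choices favour groups that do not overlap. Mare U gave the highest pregnant level of KDM5C and RHOF, and mare B that of GPX7. LOC100033996, which the RefSeq table lists as a pseudogene, had the smallest p-value without mare M. It stood at 126, 84.3, 376 and 158 CPM in cyclic and 161, 2473, 1706 and 328 CPM in pregnant glands, with 2.67 ± 0.82 with 4 mares and 3.03 ± 0.66 without mare M (adjusted p = 0.0675), and mare B showed little difference.

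On the lower side, the groups of THADA and PLOD2 did not overlap with 4 mares, which fixes the same for mares B, C and U among them. Both were named for a small p in the blocked fit among genes lower in 4 of 4 mares, a choice that favours such groups. THADA, a gene named after its rearrangement in thyroid adenomas, had 123, 418, 547 and 96.4 CPM in cyclic and 7.32, 82.8, 49.9 and 2.51 CPM in pregnant glands (-3.02 ± 1.09 and -2.7 ± 1.12). PLOD2, a lysyl hydroxylase that modifies collagen, had 114, 230, 764 and 112 CPM against 7.32, 87.7, 18.7 and 7.52 CPM (-3.27 ± 1.1 and -2.09 ± 1.27). VCAN, a matrix proteoglycan made mainly by stromal cells, was lower in mares B, C and U, with 92.5, 502, 19.8 and 467 CPM against 12.2, 108, 14.6 and 143 CPM (-1.96 ± 1.05 and -2.02 ± 0.8). In mare M the value was lower too, but the cyclic level cannot be told from 0, so the direction there is uncertain. The summed stromal fibroblast markers were 735, 1900, 1090 and 584 CPM in cyclic and 731, 547, 538 and 1040 CPM in pregnant glands, and their part in the level of VCAN was not tested.

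**Figure D4:**
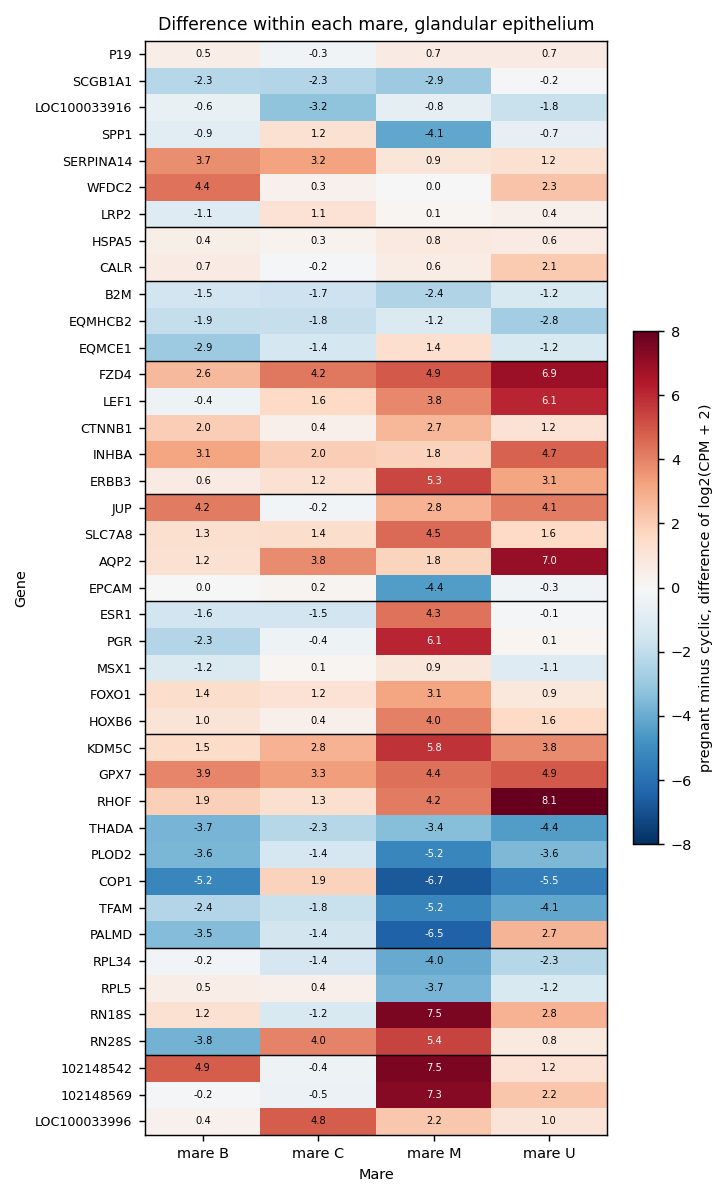
Difference between the pregnant and the cyclic library of each mare on the log2(CPM + 2) scale for 41 genes (rows) in 4 mares (columns), with the value in each cell, red for higher and blue for lower in pregnancy. FZD4, INHBA, GPX7 and RHOF are red and B2M, THADA and PLOD2 blue in every column, while ESR1 is red and EPCAM deep blue in mare M and not in the others.

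The genes that passed the test rested on mare M. COP1, a ubiquitin ligase, fell with 4 mares, by a log2 fold change of -5.6 ± 1.18 (adjusted p = 0.0133). Its cyclic levels were 71, 4.86, 1950 and 199 CPM and its pregnant levels 0, 23, 16.6 and 2.51 CPM, so that it was lower in 3 of 4 mares and the groups overlapped through mare C. Without mare M the log2 fold change was -3.28 ± 1.85 and did not pass. The unnamed ID 102148542 rose by 7.4 ± 1.35 and the unnamed ID 102148569 by 6.88 ± 1.29, both with an adjusted p of 0.00173. In pregnant M they stood at 19810 and 78670 CPM, and in the other 7 libraries at 0 to 105 and 4.88 to 494 CPM. Without mare M their log2 fold changes were 1.5 ± 2.16 and 0.95 ± 1.27. RN28S had 35440 CPM in pregnant M and 25.9 to 850 CPM elsewhere, with 4.38 ± 1.02 (adjusted p = 0.0525) and -0.04 ± 0.71 without mare M. With the mare as a block, none of the 3 genes passed: the log2 fold changes were -5.19 for COP1, 5.26 for 102148542 and 1.82 for 102148569.

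Among the lower genes with the smallest p-values, several stood high in cyclic M alone. PALMD, AGR3, GLRX3 and SNRNP48 had cyclic levels in mare M of 2016, 2530, 2095 and 1463 CPM. In the other 7 libraries PALMD did not exceed 84.3 CPM, AGR3 55.1 CPM, GLRX3 61.6 CPM and SNRNP48 23.6 CPM. Their log2 fold changes without mare M were -1.24 ± 1.97, 0.42 ± 2.08, -0.31 ± 1.85 and -0.16 ± 2.09.

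**Figure D5:**
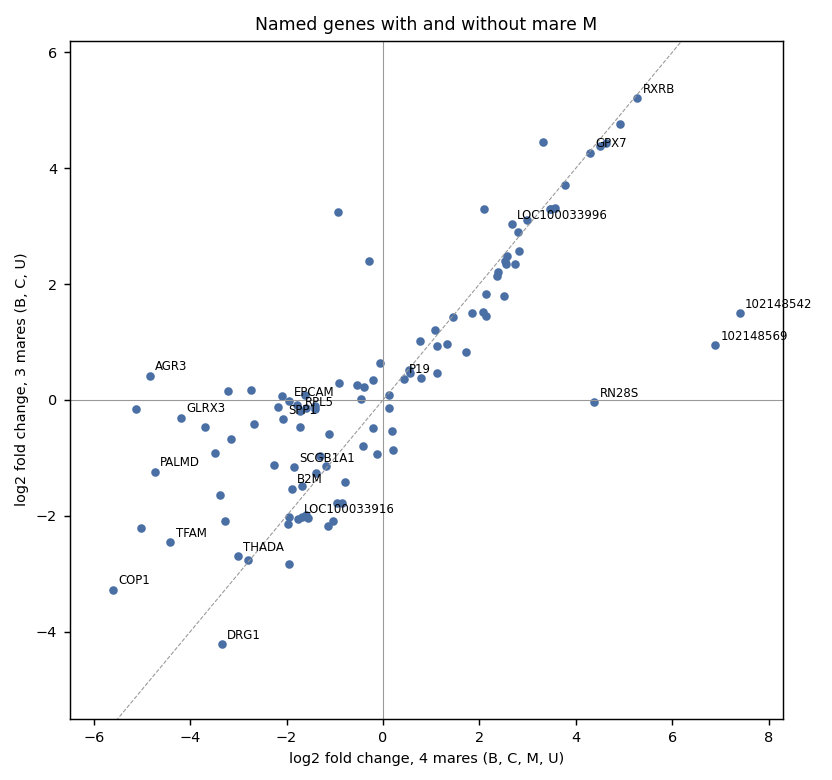
Log2 fold change, pregnant minus cyclic, of 104 named genes with 4 mares (horizontal) and with mares B, C and U (vertical), with the dashed line at equal values; the comparisons share 6 libraries. The unnamed IDs and RN28S lie to the right of the line, COP1, PALMD, AGR3 and GLRX3 to the left of it, and GPX7, RXRB and LOC100033996 near it.

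Whether the glands differed from the luminal epithelium in their pregnancy effect was asked of 12 luminal and glandular libraries from mares B, C and U in 1 model that blocked on biopsy. Of 7611 genes, 1 passed, or 0.0131%: RN18S, whose effect was higher in glands by a log2 value of 1.67 ± 0.13 (adjusted p = 3.18e-31). With mare M added, which makes 16 libraries, the value was 3.64 (adjusted p = 4.46e-22). Its glandular levels were 176100, 301600, 4296 and 65390 CPM in cyclic and 411900, 131000, 804800 and 444500 CPM in pregnant libraries, so that mare C ran opposite to the other 3 mares. The SE rests on a spread shared between genes and does not measure this spread between mares. In separate fits of mares B, C and U, RN18S changed by 0.82 ± 0.55 in glands and by -0.69 ± 0.37 in luminal epithelium. Neither change passed. In the test of the difference, 251 genes stood out at an unadjusted p under 0.05, or 3.3%. Log2 differences of effects, glandular minus luminal, were -1.86 ± 0.84 for B2M, -2.91 ± 1.05 for EQMHCB2, 3.83 ± 1.65 for INHBA and 3.19 ± 1.22 for HOXB6, each with an adjusted p of 1, beside a median of 0.82 over all genes, of which 62.3% were positive. The luminal effects of these genes, from their own fit, were 0.39 ± 0.52, 0.73 ± 0.61, 0.19 ± 0.9 and -2.09 ± 0.76. The interval of the median gene reached 6.77 to either side, and none of these 4 differences passed the test.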

How the data were processed

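RNA sequencing libraries of 8 laser-captured glandular samples were compared. The submitters' processing notes name Trimmomatic 0.32.2 for trimming and HISAT2 2.0.3 for alignment. Sources used here name no counter, genome build or annotation. The authors deposited raw read counts for 24942 gene IDs in 21 libraries. They also deposited signal tables of 21 and 19 libraries, scaled to library size, which served here only as alternatives. Symbols came from the RefSeq gene table of a telomere-to-telomere Thoroughbred assembly, used for names only, and 21420 IDs (85.9%) matched. Unmatched IDs held 1.83% to 7.7% of the counts of a glandular library.

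Counts were tested in R 4.3.3 with edgeR 4.0.16: trimmed mean of M values (TMM) scaling, filterByExpr (minimum count 10, minimum total 15), quasi-likelihood F-tests (two-sided) and Benjamini-Hochberg adjustment over all genes tested, at a threshold of 0.05. Adjusted p-values of genes are from this test where no other tool is mentioned. The SE of a log2 fold change is the estimate's size divided by the square root of F. Levels are CPM of the TMM-scaled library size, and marker sums are CPM without ribosomal RNA genes and without TMM. Differences within a mare are on the log2(CPM + 2) scale. A count of 3, the limit that a count of 0 allows, corresponds to 1.64 to 19.8 CPM per library. Intervals cover counting error only, since copies made by amplification cannot be recognised without molecular identifiers.

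The main fits had no block. The letters in the labels name the mare, so the pairing of pregnant with cyclic libraries comes from the animals. Deviations of paired libraries from their group means correlated across genes with r = 0.0311, 0.0484, -0.0371 and 0.0473 in mares B, C, M and U, against -0.0952 to 0.0964 between different mares.

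Alternatives were RLE scaling, DESeq2 1.42.0, limma 3.58.1 with voom, other count filters, no ribosomal RNA genes, the mare as a block, the signal tables and each library left out. Scripts were tested on simulated data. The members, lists and comparisons were chosen with earlier results of these data known. Named genes are those past the threshold, the 6 higher and 6 lower with the smallest p in each comparison, the 6 in each direction with the smallest p in the blocked fit among genes that moved alike in 4 of 4 mares, the 10 most abundant, the 2 list members with the smallest p in each comparison, known gland genes, and the leading genes of the test against luminal epithelium. Other list members, LOC100033916, LOC100033996 and LRR1 were named after their values were seen. Some named genes are not reported here. No strand setting is known, so reads of antisense partners may be included.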

Additional observations from a re-analysis of the deposited data

Results flagged for a closer look

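The groups of 4 libraries examined numbered 90 (41 genes and a few library measures, each in either state). In 7 of them a library lay far from the other 3. The measure was the gap to its nearest neighbour relative to the whole range. For genes, gap and range were taken on the logarithmic scale used for differences within a mare, whereas the levels printed below are plain CPM. The cut-off is one that about 1 in 20 groups of normally distributed values would pass if they were chosen in advance. Many of the 41 genes were chosen by their values in these libraries, and the groups share libraries. The count of flagged groups therefore cannot be set against that share.

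Cyclic M was the distant library in 3 of them. EPCAM, the epithelial adhesion molecule, had 14350 CPM there against 1182 to 1595 CPM in the other cyclic libraries. The ribosomal protein gene RPL34 had 3150 CPM there against 530 to 694 CPM. CTNNB1, the gene of beta-catenin, had 19.8 CPM there against 153 to 216 CPM, which is 3 counts or about the limit that a count of 0 allows in that library. Cyclic B was distant in FZD4, a WNT receptor, with 14.9 CPM where the other cyclic libraries had none, and in WFDC2, a secreted protease inhibitor, with 0.826 CPM where the others had none. Both rest on few counts, and beside values that are all 0 any count is distant by this rule. Cyclic C was distant in LRP2, the receptor megalin, with 386 CPM against 1163 to 1443 CPM. Pregnant B was distant in PALMD with 2.44 CPM against 20.8 to 29.6 CPM.

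The effect of pregnancy on RN18S, the gene of 18S ribosomal RNA, differed between compartments in edgeR's test, with a glandular minus luminal log2 value of 1.67. Leaving out 1 library at a time gave values between 1.13 and 2.22, and adding the libraries of mare M gave 3.64. When only genes with a count in every library were kept, none passed this test. The change of RN18S within either compartment alone did not pass in edgeR's test with the count filter. In glands alone it passed in other settings, although mare C ran opposite to the other mares. With limma-voom it was 1.92 with 4 mares (adjusted p = 6.83e-21) and 0.55 with mares B, C and U (adjusted p = 9.57e-83). The deposited signal gave 2.54 with 4 mares and 0.95 with mares B, C and U. Without the count filter, edgeR gave 0.85 in mares B, C and U.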

How the results depend on the processing

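With mares B, C, M and U, 3 genes passed in edgeR's quasi-likelihood test, and the count followed the settings. It was 0 with RLE factors, with DESeq2 and without mare M, and 34 without the count filter. It was 5 among genes with a count in every library and 1, RN18S, with the deposited signal of 21 libraries. The genes called by limma-voom were LRR1 and RN18S. Leaving out the ribosomal RNA genes and the 2 unnamed IDs, an alternative added after seeing the data like that without mare M, gave 1. Leaving out 1 library gave 0 to 28 calls: 0 without pregnant M, 5 without cyclic M or pregnant B, 10 and 11 without pregnant C and U, and 22, 27 and 28 without cyclic B, C and U. RLE factors moved the median of all genes from 0.07 to -0.05. The 2 unnamed IDs reversed without pregnant M, to -0.11 for 102148542 and -0.26 for 102148569, and stood at 9.09 and 8.29 without cyclic M.

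With the mare as a replicate block, 0 genes passed with 4 mares, also without the ribosomal RNA genes, and 0 with mares B, C and U, where it changed no call.

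With mares B, C and U, 0 genes passed. The count was 3 without the count filter and 1 with a count in every library (LOC100033996, 2.96). It was 3 with limma-voom and 2 with the deposited signal of 19 libraries and a pseudocount of 1. RN18S was among the genes called without the count filter, with limma-voom and with that signal. The count was 0 to 3 with 1 library left out: 2 without cyclic B or pregnant B and 3 without pregnant U. P19 reversed with limma-voom, to -0.52 (adjusted p = 1.66e-05) from 0.37. The difference from luminal epithelium had 1 call, and 44 with DESeq2, 0 among genes with a count in every library and 0 without the ribosomal RNA genes, where the called gene is not tested. Leaving out any library kept 1 call there. With the biopsy as a block, the remaining library of that biopsy then no longer bears on the difference. Leaving out the luminal or the glandular library of a biopsy is therefore nearly the same check.

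Of 105 named genes with 4 mares, 78 kept 1 sign in every setting run, as did 71 of 106 with mares B, C and U and 61 of 108 in the difference from luminal epithelium. The causes were not tested. Depth limits low genes most in cyclic M, where 3 counts equal 19.8 CPM, and 4 mares allow only large differences to pass.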

Other observations

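HSP90AB1, a cytosolic chaperone that also holds steroid receptors, had 380, 553, 1153 and 521 CPM in cyclic and 239, 350, 314 and 153 CPM in pregnant glands of mares B, C, M and U. Its groups did not overlap, and its log2 fold change was -1.3 ± 0.79, or -0.97 ± 0.63 without mare M. The median of the 10 heat shock genes tested was -0.2 with 4 mares and 0.03 without mare M.

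Complement gene C1S, a protease of the classical pathway, had 96.6, 165, 178 and 123 CPM in cyclic and 80.5, 66.3, 72.8 and 27.6 CPM in pregnant glands, also without overlap (-1.18 ± 1.12 and -1.14 ± 1.22). The coagulation gene F5 differed by 0.53 ± 0.7 and 0.51 ± 0.49. Lysosomal and endocytic genes had 16 of 23 tested members positive with 4 mares and 16 of 26 without mare M, with medians of 0.33 and 0.1. With the mare as a block, 12 of the 26 were positive and the median was -0.244. Cholesterol and lipid synthesis genes had 10 of 19 and 10 of 22 positive, the latter 8 of 22 with the mare as a block. Within that list INSIG2, which holds back the sterol-sensing machinery, was higher in each mare, with 42.9, 24.3, 6.59 and 0 CPM in cyclic and 178, 78.4, 83.2 and 67.7 CPM in pregnant glands, without overlap (2.4 ± 1.42 and 2.21 ± 1.57). LRR1, whose cyclic level ran from 4.95 to 2245 CPM between mares B and C, was called by limma-voom in both sets of mares (3.47 and 3.27) and not by edgeR's quasi-likelihood test (1.12 ± 0.81 and 0.46 ± 0.62).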
